A study of Drosophila melanogaster with 12 samples.

Results

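The 150 mRNAs described here carried the most ribosome footprints for the amount of their RNA in wild-type female Drosophila melanogaster. They were chosen from wild-type values alone. Counts were summed over the transcripts of each nuclear protein-coding gene and scaled to counts per 1000000 protein-coding counts of the library (CPM). A gene was eligible if its RNA averaged at least 20 CPM in wild type, and genes were ranked by the mean of the wild-type footprints plus 1 CPM over the mean of the wild-type RNA plus 1 CPM, here called the footprint to RNA ratio. Of 12746 genes in the table, 6575 were eligible, and the 150 highest became the members. Their wild-type ratios follow from this choice and are given as a description.

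Footprints are the RNA fragments that a ribosome shields from nuclease, so their number on an mRNA depends both on how much of the mRNA there is and on how many ribosomes sit on each copy. RNA-Seq counts of the same flies also grow with mRNA length. Dividing by them leaves a relative measure of ribosome density, often called translation efficiency, and no count of ribosomes per mRNA copy. A high ratio can come with frequent initiation, slow elongation, a large coding share of the transcript or an RNA that RNA-Seq counts poorly. The ratio alone does not separate these.

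The mutant group was Polr3DEY/+ females, heterozygous for the P-element insertion Polr3DEY22749 in a subunit of RNA polymerase III, the enzyme that transcribes tRNA genes, and the insertion had been backcrossed into the wild-type stock. The control group was wild-type females of the White Dahomey stock, which carries a white mutation in the outbred Dahomey background. Homozygotes of the insertion are not viable. Flies of both groups were used whole and pooled by weight, and their age in this assay is not given in the sources used here. Ribo-Seq libraries were 3 of Polr3DEY/+ and 3 of wild-type flies, and RNA-Seq libraries were 3 of Polr3DEY/+ and 2 of wild-type flies. A wild-type RNA-Seq replicate 3 is labelled but was not analysed here. The study used these libraries to ask whether a partial loss of RNA polymerase III changes the translation of particular mRNAs. The labels do not say whether replicates are separate pools of flies, so errors and p-values cover only the spread between these libraries, which may be technical.

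Nuclear protein-coding genes took 1138903, 3191103 and 1188603 counts in the Polr3DEY/+ footprint libraries and 1126956 to 1495371 in the wild-type ones, or 1.89% to 3.67% of all counts. The RNA-Seq libraries held 22981563 to 27135304 such counts. RNA of Polr3D itself was 31.3 to 32.3 CPM in Polr3DEY/+ and 55.7 and 67.2 CPM in wild type, a fall by 0.92 on the log2 scale (SE 0.25, DESeq2 adjusted p 0.0294). Ovary markers summed to 15770 to 18440 CPM in Polr3DEY/+ footprints and 13210 to 15860 CPM in wild type, and midgut markers to 11710 to 12610 CPM in Polr3DEY/+ and 9827 to 12860 CPM in wild type. The summed footprints of fat body and muscle markers overlapped as well. Within the ovary sum, single markers moved in opposite directions. Footprints of the germline markers osk and vas were lower in Polr3DEY/+, without overlap. For osk they were 19.3 to 37.6 CPM in Polr3DEY/+ and 39.7 to 55.9 CPM in wild type. Those of Cp36 were higher without overlap, at 5530 to 6800 CPM in Polr3DEY/+ and 4440 to 5370 CPM in wild type. Those of Cp38 and Vm26Aa overlapped. The summed eye markers did not overlap, with 933.5 to 1318 CPM of footprints in Polr3DEY/+ and 791.2 to 872.3 CPM in wild type. Their RNA was 914.3 to 934.2 CPM in Polr3DEY/+ and 1043 and 1105 CPM in wild type. Of the eye markers, ninaE footprints were 764, 565 and 660 CPM in Polr3DEY/+ and 424, 461 and 420 CPM in wild type. Footprints of trp and Arr2 overlapped between the genotypes. Of the male markers, Acp36DE was at 0, 2.82 and 15.1 CPM in the Polr3DEY/+ footprint libraries and 0, 32.8 and 0 CPM in the wild-type ones, and reached 14.8 CPM in 1 Polr3DEY/+ RNA library, while Mst84Da was at 0 in every footprint library.

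The members' wild-type ratio ran from 2.79 to 48.7 with a median of 3.42, beside a median of 0.73 over the eligible genes. The members' RNA spanned the same levels as that of other genes: it had a wild-type median of 63.3 CPM, beside 62.8 CPM over the eligible genes, and 26.7% of them, against 27.8% of the eligible genes, lay under 40 CPM. They took 14.52%, 14.86% and 14.55% of the protein-coding footprints in Polr3DEY/+ and 15.87%, 14.37% and 14.7% in wild type, but 3.855%, 3.176% and 4.326% of the protein-coding RNA counts in Polr3DEY/+ and 3.521% and 4.236% in wild type. Just inside the threshold lay CG43055, tweek and Fer2LCH, all at 2.79 in wild type. Just outside it lay Cad87A at 2.78, mew at 2.78 and fat-spondin at 2.77.

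The Polr3DEY/+ libraries had no part in the choice and give the ratio a second time. In them the members had a median ratio of 3.56, from 2.0 to 64.0, beside 0.721 over the eligible genes. All 150 had a ratio above 1, and 148 lay above 2.11, the 95th percentile of the eligible genes in Polr3DEY/+. Of the 150, 122 were again among the 150 highest when the rule was applied to the Polr3DEY/+ libraries, and the lowest of them stood at percentile 94.1. Within single replicates, the median was 3.55, 4.19 and 3.16 in Polr3DEY/+ replicates 1, 2 and 3, and 4.01 and 3.39 in wild-type replicates 1 and 2. The ratio of 139 members was above 2 in all 5 replicate pairs of libraries. The wild-type pairs among them also chose the members, so that count is partly fixed by the choice. It was not made over the eligible genes. In 142 members the highest Polr3DEY/+ replicate was within 2-fold of the lowest.

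**Figure D1:**
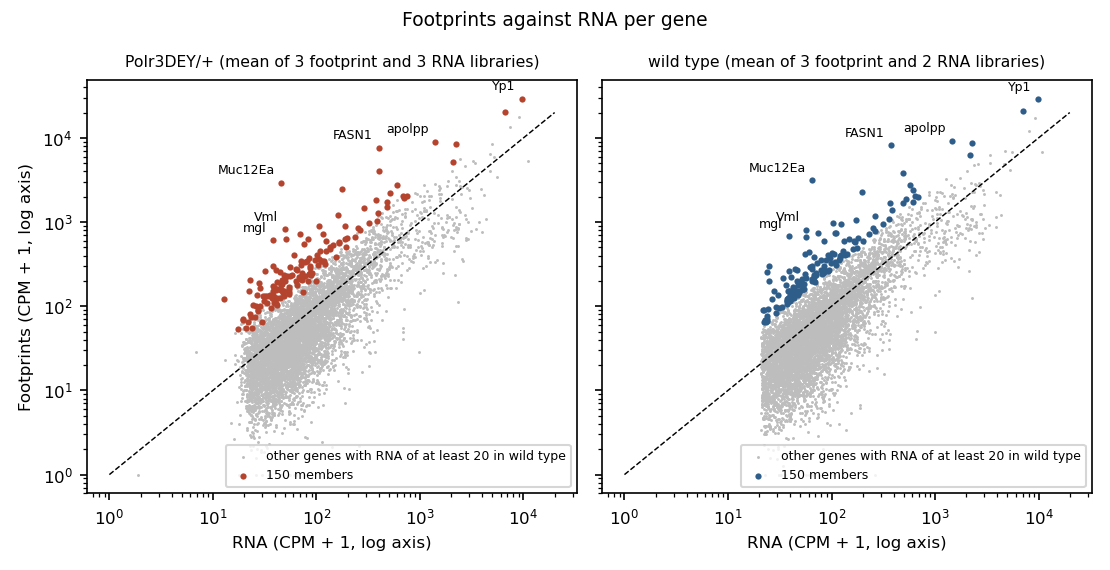
Mean footprints against mean RNA per gene, both as CPM + 1 on log axes, in Polr3DEY/+ flies (left, 3 footprint and 3 RNA libraries) and wild-type flies (right, 3 and 2). Coloured points are the 150 members, grey points the other eligible genes, and the dashed line marks equal values; the members lie above the line in both genotypes, with a median ratio of 3.56 in Polr3DEY/+ and 3.42 in wild type, where that position follows from the choice.

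The 5 highest ratios in Polr3DEY/+ belonged to Muc12Ea, FASN1, Vml, mgl and CG34324, and the lowest to BaraA1 (2.0), r (2.03), sls (2.18), osy (2.27) and mesh (2.38). Rudimentary, r, encodes the enzyme that starts pyrimidine synthesis, sls is a titin-like protein of muscle, and mesh is a junction protein of the gut epithelium. The replicates of 1 genotype often spread more than the genotypes differed: the ratio of FASN1 was 20.3, 24.6 and 14.2 in Polr3DEY/+ replicates and 31.5 and 17.9 in wild-type replicates.

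Enzymes that build fatty acids were among the members. ATP citrate lyase (ATPCL) makes cytosolic acetyl-CoA, acetyl-CoA carboxylase (ACC) turns it into malonyl-CoA, and the fatty acid synthases FASN1, FASN2 and FASN3 lengthen it into fatty acids. All 5 were members. Of the 7 eligible genes in the list, chosen after the members were seen, the other two were Men, a malic enzyme that supplies NADPH, with a ratio of 2.22 in Polr3DEY/+ and 2.39 in wild type, and the desaturase Desat1, with 1.57 in Polr3DEY/+ and 1.46 in wild type.

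FASN1, on chromosome 2L at 3056598 to 3068177 on the plus strand, had 8328, 8027 and 6631 CPM of footprints in Polr3DEY/+ and 9664, 7929 and 7001 CPM in wild type. Its RNA was 410, 325 and 467 CPM in Polr3DEY/+ and 306 and 441 CPM in wild type. The genotypes overlapped in both assays, and the ratio of means was 19.1 in Polr3DEY/+ and 21.9 in wild type. FASN2, its neighbour on the same strand at 3043947 to 3056143, had a ratio of 6.71 in Polr3DEY/+ and 7.37 in wild type, and FASN3, on chromosome 3L, 7.51 in Polr3DEY/+ and 7.79 in wild type. FASN3 was the only enzyme of the 5 whose footprints did not overlap between the genotypes, at 1251, 1138 and 1272 CPM in Polr3DEY/+ and 1078, 920 and 876 CPM in wild type. Its RNA, 161, 125 and 199 CPM in Polr3DEY/+ and 107 and 137 CPM in wild type, did overlap, and neither difference passed the test (DESeq2 adjusted p 1.0 for both). How many of all genes lacked overlap was not counted, so a lack of overlap, above or below, is only a description.

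ACC had 912, 985 and 817 CPM of footprints in Polr3DEY/+ and 1224, 983 and 952 CPM in wild type, and a ratio of 4.75 in Polr3DEY/+ and 6.13 in wild type. ATPCL had a ratio of 3.35 in Polr3DEY/+ and 3.60 in wild type. In RNA, replicate 2 was the lowest of the Polr3DEY/+ libraries for each of the 5 enzymes, and replicate 1 the lower of the wild-type ones. This was not particular to them. RNA of all members had median log2 deviations from the mean over libraries of -0.221 in Polr3DEY/+ replicate 2 and -0.11 in wild-type replicate 1. For all eligible genes of at least 6000 coding nt they were -0.286 and -0.135. Each was the lowest of its genotype. None of the 7 genes of the list was called in any of the 3 genotype contrasts described below.

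**Figure D2:**
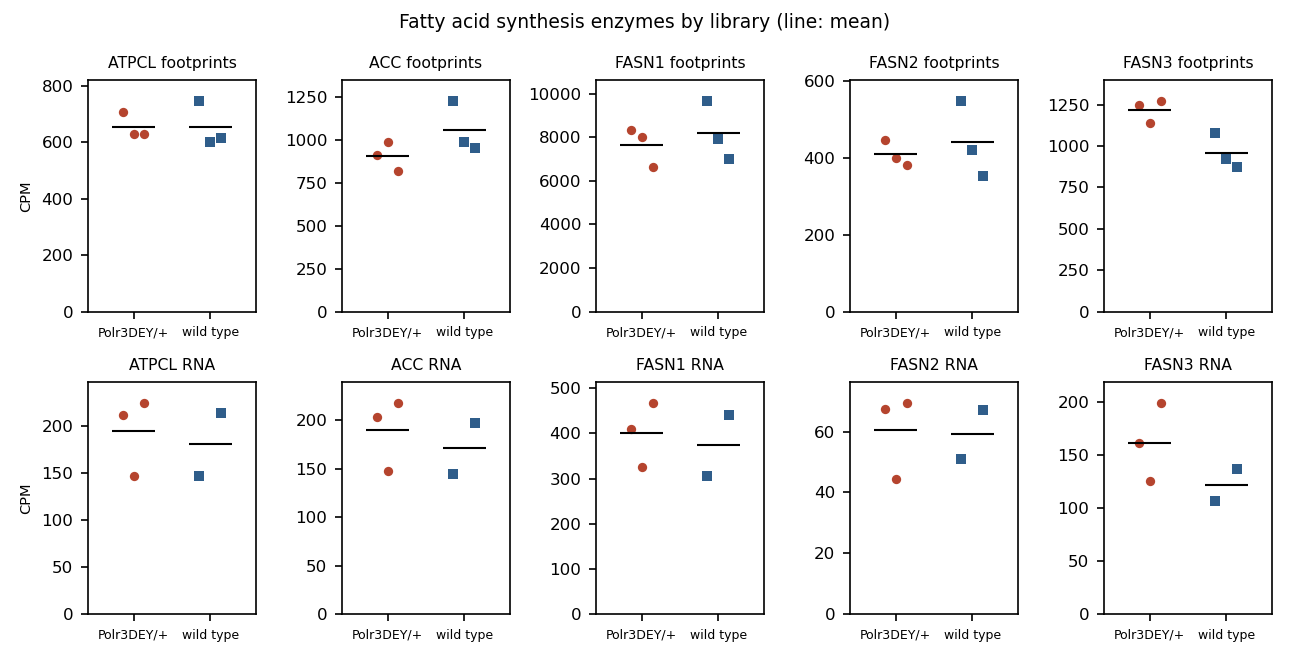
Footprints (top) and RNA (bottom) of ATPCL, ACC, FASN1, FASN2 and FASN3 in CPM on axes that start at 0, with a point per library in replicate order (Polr3DEY/+ left, 3 libraries in each assay; wild type right, 3 footprint and 2 RNA libraries) and a line at the mean. The genotypes overlap in every panel but the FASN3 footprints, where Polr3DEY/+ libraries hold 1138 to 1272 CPM and wild-type libraries 876 to 1078 CPM.

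Lipid carriers in the haemolymph and 1 of their receptors were also members. The apolipoproteins apolpp, the scaffold of lipophorin, and Apoltp, of the lipid transfer particle, are made in the fat body, and mgl encodes megalin, a large endocytic receptor. The ratio of mgl was 15.9 in Polr3DEY/+ and 17.4 in wild type, from 642, 628 and 555 CPM of footprints in Polr3DEY/+ and 859, 620 and 540 CPM in wild type. Apoltp had a ratio of 10.5 in Polr3DEY/+ and 9.87 in wild type, and apolpp 6.5 in Polr3DEY/+ and 6.37 in wild type. The footprints of apolpp, 8464, 8830 and 9836 CPM in Polr3DEY/+ and 9732, 8881 and 9069 CPM in wild type, overlapped. The other eligible genes of the list, which was chosen after the members were seen, were yl, LpR2, LpR1 and Mtp, with wild-type ratios of 1.35 to 2.42. The oenocyte cytochrome P450 Cyp4g1, which makes the hydrocarbons of the cuticle, was a member at 3.85 in Polr3DEY/+ and 3.82 in wild type, the only one of 37 eligible P450 genes.

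Among proteins of the egg, Vml, a vitelline membrane-like protein, stood highest. It lies on chromosome X at 2275822 to 2277781, plus strand, and had 803, 892 and 778 CPM of footprints in Polr3DEY/+ and 766, 838 and 823 CPM in wild type. Its RNA was 51.7, 38.4 and 55.2 CPM in Polr3DEY/+ and 48.3 and 62.5 CPM in wild type. The ratio was 16.7 in Polr3DEY/+ and 14.4 in wild type, and 21.7 times the wild-type median of genes of like coding length. The vitelline membrane protein Vm26Ab (4.79 in Polr3DEY/+ and 4.56 in wild type) and palisade, psd (3.45 in Polr3DEY/+ and 2.98 in wild type), were the other two of 9 eligible vitelline membrane genes to be members. The remaining 6 had wild-type ratios of 0.584 to 1.35, so the list was not uniform. Yp1 and Yp3, yolk proteins, were members at 3.0 and 3.11 in Polr3DEY/+ and 2.92 and 3.0 in wild type, while their relative Yp2 had 1.95 in Polr3DEY/+ and 1.90 in wild type. None of 9 chorion proteins of the eggshell and none of 19 oocyte and germline regulators was a member, and the regulators had a median ratio of 0.441 in Polr3DEY/+ and 0.467 in wild type.

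Muc12Ea, a mucin, had the highest ratio of all. It lies on chromosome X at 14277735 to 14288161, plus strand, and its single transcript codes for 3321 amino acids. Footprints were 2893, 2849 and 3038 CPM in Polr3DEY/+ and 3198, 3172 and 3102 CPM in wild type. RNA was 36.5, 48.5 and 49.2 CPM in Polr3DEY/+ and 68.2 and 59.4 CPM in wild type, and the genotypes overlapped in neither assay. The ratio was 64.0 in Polr3DEY/+ and 48.7 in wild type, 42.2 times the wild-type median of genes of like length. Mur2B, with 4.78 in Polr3DEY/+ and 4.54 in wild type, and Muc11A, with 4.34 in Polr3DEY/+ and 4.02 in wild type, were the other members among 8 eligible mucins. Mur18B was lowest of the 8 at 0.365 in Polr3DEY/+ and 0.455 in wild type. The mucin list was chosen after the members were seen.

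Components of the basement membrane, the sheet of extracellular matrix under epithelia and around muscle and fat body, made up 7 members of 9 eligible genes. The list was chosen after the members were seen, so this share is no measure of enrichment. They were trol (perlecan), the laminin chains LanA, LanB1 and LanB2, the collagen IV chains vkg and Col4a1, and papilin (Ppn). LanA had a ratio of 5.77 in Polr3DEY/+ and 5.88 in wild type, LanB2 4.23 in Polr3DEY/+ and 4.55 in wild type, and Col4a1 3.50 in Polr3DEY/+ and 3.40 in wild type. All 7 were again among the 150 highest in Polr3DEY/+. The footprints of trol were 332, 308 and 226 CPM in Polr3DEY/+ and 600, 344 and 299 CPM in wild type, so that wild-type replicate 1 stood alone above the rest. Its ratio was 5.18 in Polr3DEY/+ and 7.42 in wild type, and its footprint change of -0.64 did not pass the test (SE 0.24, DESeq2 adjusted p 0.849). The 2 eligible genes that were not members, SPARC and Pxn, had ratios of 2.71 and 2.18 in Polr3DEY/+ and 2.65 and 2.20 in wild type.

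Spectrins and other large proteins that bind actin or link it to membranes gave 10 members of 16 eligible genes. This list, too, was chosen after the members were seen, and the share is no measure of enrichment. Msp300, a nesprin that anchors nuclei, had a ratio of 9.13 in Polr3DEY/+ and 10.8 in wild type, alpha-Spec 8.58 in Polr3DEY/+ and 9.54 in wild type, beta-Spec 3.62 in Polr3DEY/+ and 4.45 in wild type, and zip, the heavy chain of non-muscle myosin, 3.66 in Polr3DEY/+ and 4.30 in wild type. The others were kst, shot, Dys, cora, sls and rhea. The dynein heavy chain Dhc64C, which was in no list, had 12.4 in Polr3DEY/+ and 11.7 in wild type, from 56.1, 40.2 and 51.5 CPM of RNA in Polr3DEY/+ and 49.5 and 61.4 CPM in wild type. Not every actin-linked gene had a high ratio: hts, Actn and Ank had 0.869, 0.800 and 0.361 in Polr3DEY/+ and 0.996, 0.759 and 0.433 in wild type.

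Secreted proteins of haemocytes and fat body that act in immunity gave 7 members of 11 eligible genes, again in a list chosen after the members were seen. Hemolectin, Hml, a clotting protein of haemocytes, had a ratio of 8.19 in Polr3DEY/+ and 6.77 in wild type. The thioester protein Tep4 had 4.35 in Polr3DEY/+ and 4.56 in wild type, the Nimrod protein NimB2 4.46 in Polr3DEY/+ and 4.31 in wild type. The serpin nec, Tep2 and GNBP3, a receptor for fungal glucans, lay between 2.99 and 3.25 in Polr3DEY/+ and between 3.005 and 3.56 in wild type. BaraA1 is a case apart: its RNA was 65.5, 84.4 and 70.4 CPM in Polr3DEY/+ and 83.9 CPM in wild-type replicate 1, but it is listed at 0 in wild-type replicate 2, where its near-identical copy BaraA2 took the counts. Summed, the pair had a ratio of 1.98 in Polr3DEY/+ and 2.12 in wild type and would not have been chosen.

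Of 5 eligible antimicrobial peptides and related immune-induced peptides, 3 were members. BomS2, a short bomanin, had 286, 283 and 326 CPM of footprints in Polr3DEY/+ and 238, 223 and 201 CPM in wild type, and 32.4, 42.3 and 36.5 CPM of RNA in Polr3DEY/+ and 51.2 and 27.3 CPM in wild type. Its footprints did not overlap between the genotypes, its RNA did, and the ratio was 7.87 in Polr3DEY/+ and 5.51 in wild type. IM33 had a ratio of 4.14 in Polr3DEY/+ and 3.29 in wild type, and the antifungal peptide drosomycin, Drs, 3.49 in Polr3DEY/+ and 2.97 in wild type. None of the 5 was called in a contrast.

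The digestive enzymes of the midgut among the members belong to families of related genes. Jon99Fii and Jon99Fi, which are neighbours on chromosome 3R, had ratios of 5.10 and 3.14 in Polr3DEY/+ and 4.53 and 3.88 in wild type, and their sum had 4.57 in Polr3DEY/+ and 4.37 in wild type. Jon65Aii had 4.08 in Polr3DEY/+ and 3.46 in wild type, but the 4 Jon65A genes together had 1.63 in Polr3DEY/+ and 1.46 in wild type. The trypsin gammaTry was at 0 in 2 of 3 Polr3DEY/+ and 1 of 3 wild-type footprint libraries, and the sum with its copies had 1.26 in Polr3DEY/+ and 0.941 in wild type. The zeros of gammaTry beside counts on its copies leave its own value uncertain. Jon65Aii had no such zeros, with 208, 260 and 244 CPM of footprints in Polr3DEY/+ and 250, 251 and 231 CPM in wild type, and sequence shared between these genes was not measured.

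The replication-dependent histones are encoded by many copies each. His2B:CG33872 had a ratio of 9.5 in Polr3DEY/+ and 11.9 in wild type from RNA of 0, 20.2 and 15.1 CPM in Polr3DEY/+ and 32.4 and 15.7 CPM in wild type. Summed over copies, His2B had 42.2 in Polr3DEY/+ and 38.8 in wild type, and His4 had 10.2 in Polr3DEY/+ and 7.33 in wild type. The sum of the His3 copies, with RNA of 7.22 to 8.45 CPM in Polr3DEY/+ and 8.08 and 11.4 CPM in wild type, was below the minimum and had 236 in Polr3DEY/+ and 189 in wild type. The His1 and His2A sums had 1.24 and 1.05 in Polr3DEY/+ and 1.32 and 1.18 in wild type. Replication-dependent histone mRNAs end in a stem-loop and mostly lack a poly(A) tail, and whether the RNA-Seq libraries were selected for poly(A) RNA is not given in the sources used here.

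**Figure D3:**
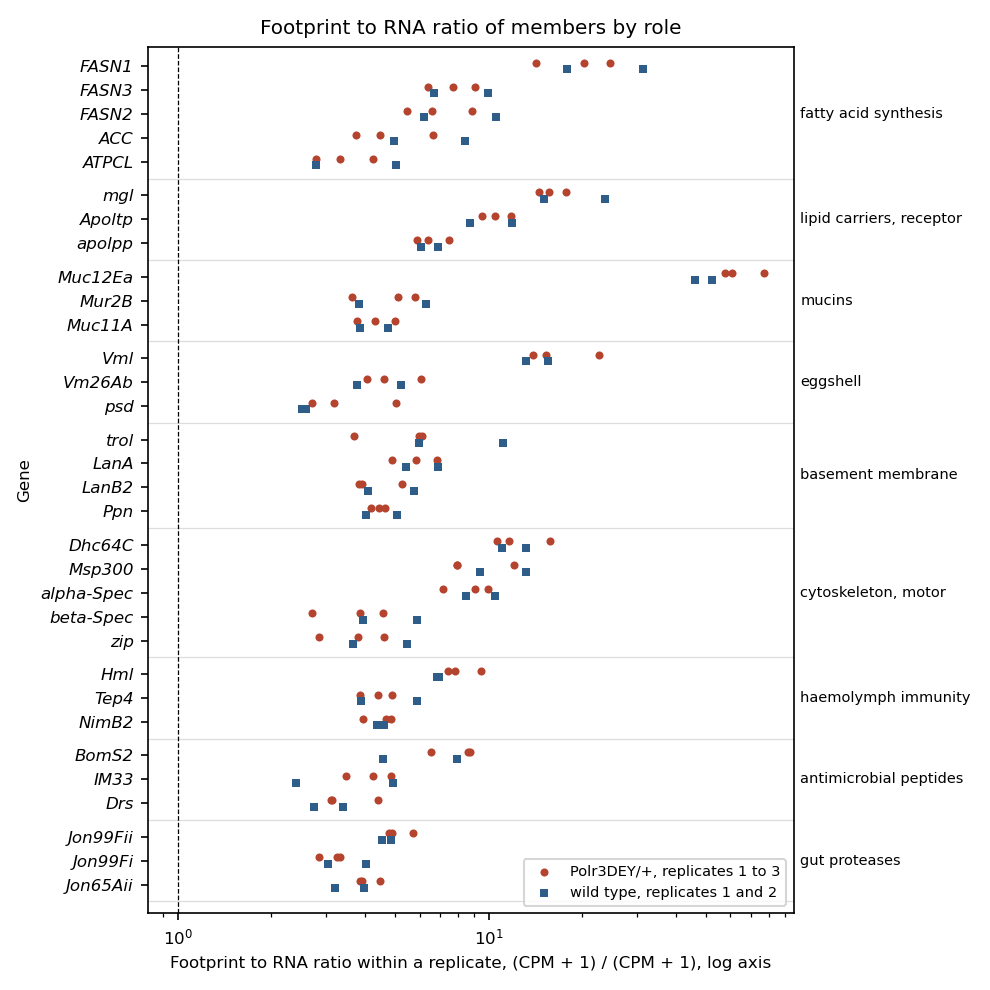
Footprint to RNA ratio within each replicate, (CPM + 1) over (CPM + 1) on a log axis, for members grouped by role. Circles are Polr3DEY/+ replicates 1 to 3 (upper of each pair of rows), squares wild-type replicates 1 and 2 (lower); the dashed line marks a ratio of 1, and Muc12Ea lies farthest to the right at 57.5 to 77.2 in Polr3DEY/+ and 46.2 and 52.5 in wild type.

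Further members had single roles. The large ubiquitin ligases poe, HUWE1 and Bruce had ratios of 7.18, 4.31 and 4.10 in Polr3DEY/+ and 7.08, 4.46 and 4.33 in wild type. Helpers of protein folding outside the lists were members too: the Hsp90 co-chaperone Cdc37 had 3.35 in Polr3DEY/+ and 3.33 in wild type, Uggt, which marks misfolded glycoproteins in the ER, 2.90 in Polr3DEY/+ and 3.19 in wild type, and the disulfide isomerase ERp60 2.76 in Polr3DEY/+ and 2.90 in wild type. Sap-r, the saposin precursor of lysosomes, had 4.62 in Polr3DEY/+ and 4.85 in wild type. The ferritin light chain Fer2LCH, which stores iron, was the last member, at 2.96 in Polr3DEY/+ and 2.79 in wild type. CG34324, CG13185 and CG34220 were among the 15 highest, at 14.1, 6.79 and 10.1 in Polr3DEY/+ and 11.6, 8.02 and 7.81 in wild type, and are known by annotation numbers only. Such numbers named 29 members, 19.3% of them, beside 29.3% of the eligible genes. The lists held 63 of the 150 members. None of 86 cytosolic ribosomal proteins, 68 mitochondrial ribosomal proteins, 45 translation factors or 22 heat shock and ER chaperones in the lists was a member, and the cytosolic ribosomal proteins had a median ratio of 0.399 in Polr3DEY/+ and 0.423 in wild type.

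Coding length was not used by the rule and was unlike that of the other genes. The members' median coding length was 2940 nt, beside 1370 nt over the eligible genes, and the coding part made up a median of 85.2% of the transcript, beside 75.8%. Of the members, 42 had at least 6000 nt of coding sequence, 28% beside 2.34% of the eligible genes, and 27.3% of the 154 eligible genes of that length were members. The shortest class was over-represented too: 18 members, 12% beside 7.36% of the eligible genes, coded for under 450 nt. The median ratio over all eligible genes was 1.61 in Polr3DEY/+ and 1.69 in wild type from 6000 nt upwards and 0.854 in Polr3DEY/+ and 0.796 in wild type under 450 nt. Each of the 150 members was at least 2 times above the wild-type median of genes of like length. This follows from the choice, since the lowest member had 2.79 and the highest class median was 1.15. Had the wild-type ratio first been divided by that median, 120 of them would have been chosen, a variant added after seeing the data. Dividing footprints by coding length and RNA by transcript length before ranking left 91.

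**Figure D4:**
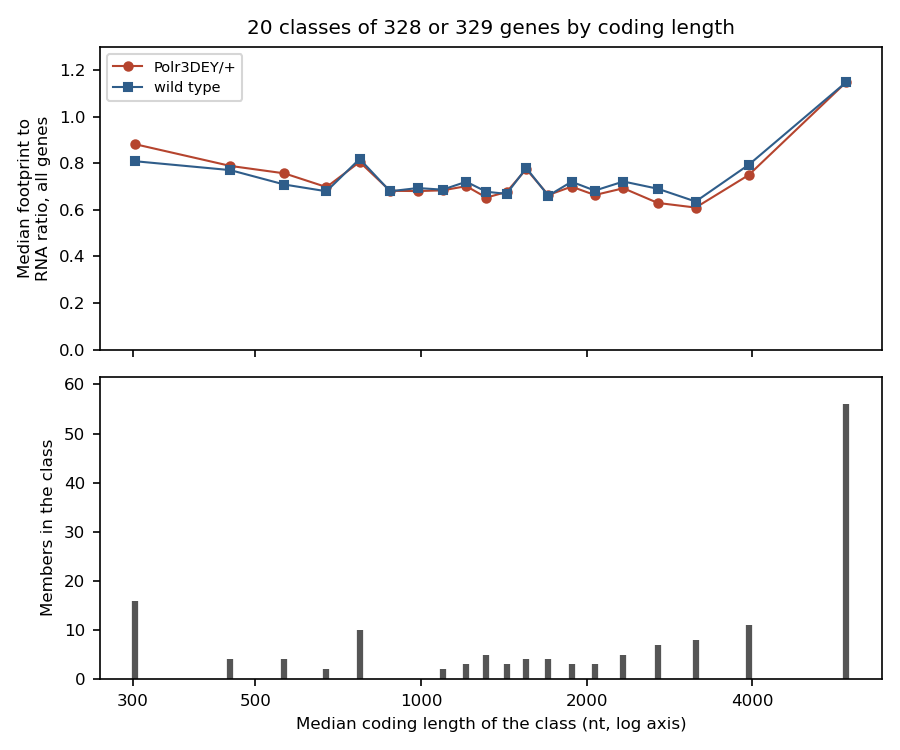
Median footprint to RNA ratio of the eligible genes (top, linear axis from 0) and number of members (bottom) in 20 classes of 328 or 329 genes by coding length, plotted at the class's median length in nt on a log axis. Circles are Polr3DEY/+, squares wild type; the ratio lies between 0.61 and 0.882 in 19 classes and reaches 1.15 in both genotypes in the longest, which holds 56 of the 150 members.

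The members lay on all major chromosome arms in shares close to those of the eligible genes, with 33 on 2R, 32 on 2L, 30 on X, 29 on 3R and 25 on 3L, and 1 on chromosome 4. Exons of 3 members, Pepck1, CG44325 and Adh, overlapped another gene on the same strand over more than 20% of their length, beside 2.89% of the eligible genes. An antisense gene covered more than 20% of 7 members, among them Cys, ssp7, Yp1 and BaraA1, beside 6.02% of the eligible genes. Counts of these members may include reads of the partner, since the use of strand in counting is not given in the sources used here.

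The genotype contrasts asked which of these mRNAs differed in RNA, in footprints or in the balance of both (translation efficiency, the interaction of genotype and assay) in Polr3DEY/+ flies. The wild-type libraries of these contrasts also chose the members, so directions over the members were not read as results. In DESeq2, at an adjusted p under 0.1, 1 member (0.667%) was called in RNA, lower in Polr3DEY/+, beside 1.02% of all genes tested in either direction and 0.128% lower. In footprints 1 member was called, higher in Polr3DEY/+, beside 0.362% of all genes in either direction and 0.285% higher. In translation efficiency 0 members were called, beside 0.303% of all genes. An unadjusted p under 0.05 was given in DESeq2 to 6 members (4%) for RNA, beside 1.61% of all genes, to 11 (7.33%) for footprints, beside 2.92%, and to 4 (2.67%) for translation efficiency, beside 1.65%. In edgeR, 0 members were called in RNA, beside 0.104%, 1 in footprints, beside 0.271%, and 0 in translation efficiency, beside 0.0278%. There an unadjusted p under 0.05 was given to 6 members (4%) for RNA, beside 1.55%, to 12 (8%) for footprints, beside 4.62%, and to 4 (2.67%) for translation efficiency, beside 2.72%. Nothing was read from these shares, since the members were chosen with the same wild-type libraries.

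The RNA of Muc12Ea fell by 0.56 on the log2 scale in Polr3DEY/+ (SE 0.15, DESeq2 adjusted p 0.0329). Its RNA libraries did not overlap, at 36.5 to 49.2 CPM in Polr3DEY/+ and 59.4 and 68.2 CPM in wild type. Its footprints changed by -0.16 (SE 0.15, adjusted p 1.0) and its translation efficiency by 0.41 (SE 0.21, adjusted p 1.0). The RNA call was lost in edgeR (-0.55, adjusted p 1.0). It was also lost without the Polr3DEY/+ footprint library 2 or 3, without the Polr3DEY/+ RNA library 1 or 3 and without the wild-type RNA library 1, and over all single libraries left out the change ran from -0.73 to -0.38 with adjusted p from 0.00182 to 1.0. In whole flies, fewer cells of a type and less RNA per cell cannot be told apart.

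LysB encodes a midgut lysozyme and lies on chromosome 3L at 1207371 to 1207981, plus strand. Its footprints were 243, 241 and 161 CPM in Polr3DEY/+ and 91.6, 113 and 145 CPM in wild type. In the fit, which left out wild-type replicate 3 (145 CPM), they rose by 1.20 on the log2 scale (SE 0.25, DESeq2 adjusted p 0.0022, edgeR adjusted p 0.00392). With all 11 libraries the rise was 0.89 (DESeq2 adjusted p 0.0616). The lowest Polr3DEY/+ library lay above the highest wild-type one. RNA was 48.2, 53.3 and 44.3 CPM in Polr3DEY/+ and 47.9 and 29.4 CPM in wild type, which overlapped. The call was lost without the Polr3DEY/+ footprint library 1 or 2 (DESeq2 adjusted p 0.1 and 0.283). It was also lost without the wild-type footprint library 1, which left a single wild-type footprint library in the fit. Over all libraries left out the change ran from 0.988 to 1.434. LysB belongs to a family of closely related genes, and the 6 Lys genes were therefore summed, a variant added after seeing the data. Their footprints were 2300, 2058 and 1921 CPM in Polr3DEY/+ and 1261, 1193 and 1412 CPM in wild type. In the fit, again without wild-type replicate 3, these rose by 0.78 (SE 0.13, DESeq2 adjusted p 6.33e-06). Their RNA changed by 0.17 (SE 0.12, adjusted p 1.0) and their translation efficiency by 0.61 (SE 0.17, adjusted p 0.121), which did not pass the test. The sum had a ratio of 3.06 in Polr3DEY/+ and 2.13 in wild type, and the wild-type value is below the threshold. Other midgut genes moved unevenly. In the fitted footprint libraries midgut markers summed to 11710 to 12610 CPM in Polr3DEY/+ and 10680 and 9827 CPM in wild type, without overlap. Wild-type replicate 3, outside the fit, had 12860 CPM. Of these markers, Jon99Ci, Jon65Aiii and betaTry did not overlap in the fitted libraries, while alphaTry, Mal-A1 and LysX did. The 13 eligible Jonah proteases had a median footprint change of 0.32 with 2 called higher, and the 10 eligible trypsins one of 0.33 with 0 called. The 12 eligible amylases and maltases had a median of 0.02 and the 8 eligible gut lipases 0.125, each with 1 called higher. Over all genes 0.285% were called higher. The part of these in the rise was not tested.

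**Figure D5:**
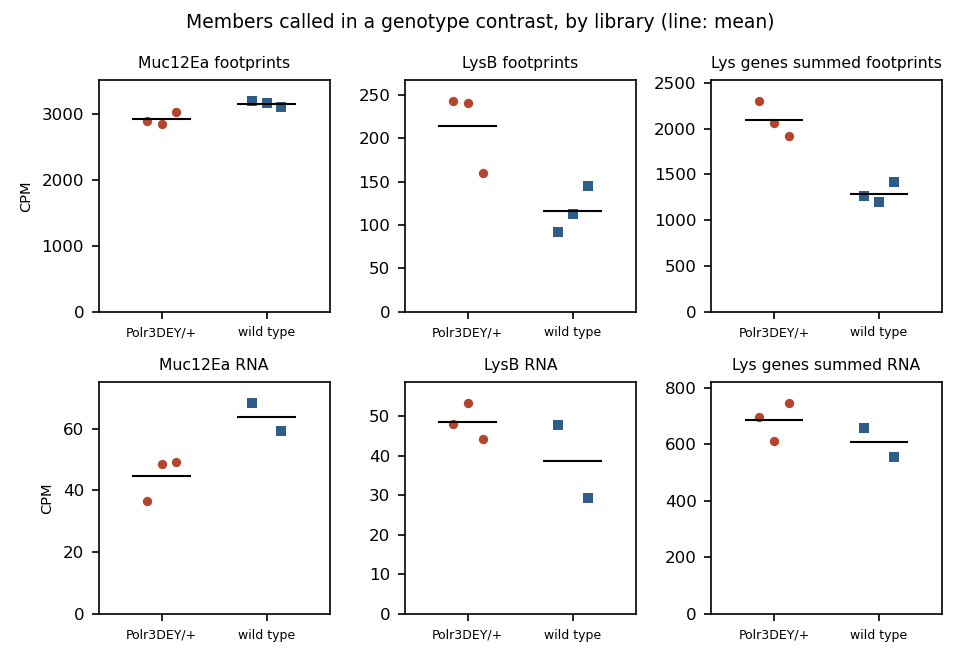
Footprints (top) and RNA (bottom) of Muc12Ea, LysB and the 6 Lys genes summed, in CPM on axes that start at 0, with a point per library in replicate order (Polr3DEY/+ left, wild type right) and a line at the mean. Muc12Ea RNA is 36.5 to 49.2 CPM in Polr3DEY/+ and 59.4 and 68.2 CPM in wild type, and the Lys footprints are 1921 to 2300 CPM in Polr3DEY/+ and 1193 to 1412 CPM in wild type.

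The fitted changes of the short and the long members are given apart, since single libraries moved with them. Wild-type libraries of these fits also chose the members, so the directions were not read as results. The 18 members under 450 nt had a median change in translation efficiency of 0.31 on the log2 scale, and all 18 lay above 0, beside 72.7% of the eligible genes of that length. Their RNA, however, deviated from its mean over libraries by a median of -0.16, 0.05 and -0.12 in Polr3DEY/+ replicates 1, 2 and 3 and by 0.48 and -0.18 in wild-type replicates 1 and 2, so that wild-type replicate 1 stood apart from replicate 2 by more than the genotypes. Without the wild-type RNA library 1 the median was -0.18, with 3 of 18 above 0, and without library 2 it was 0.73. The direction for short members thus turned with 1 library. UQCR-6.4, a subunit of respiratory complex III, shows this: its RNA was 32.8, 36 and 34.2 CPM in Polr3DEY/+ and 56.9 and 26.5 CPM in wild type.

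The 42 members of at least 6000 nt had a median footprint change of -0.23, and 40 of them lay below 0 and 4.76% above. Among the 154 eligible genes of that length 25.3% lay above 0. Unlike that class, the members were chosen for high wild-type footprints per RNA in libraries of this fit. The shares are therefore not like for like, and the direction was not read as a result. None was called. Their footprints deviated from the mean over libraries by a median of 0.01, -0.07 and -0.15 in Polr3DEY/+ replicates and by 0.20, 0.04 and -0.04 in wild-type replicates, and wild-type replicate 3 was not in the fit. Without the wild-type footprint library 1 the median change was -0.12 with 36 of 42 below 0, and with all 11 libraries -0.11 with 35 of 42 below 0. Their change in translation efficiency had a median of -0.15 and turned to 0.08 without the wild-type RNA library 1. Without the wild-type footprint library 2, library 1 was the only wild-type footprint library in the fit. The footprint changes of trol, kst and shot were then -1.01, -0.96 and -0.77. These genes stood at 600, 400 and 375 CPM in library 1, beside 344, 220 and 225 CPM in library 2.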

How the data were processed

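Ribo-Seq and RNA-Seq libraries of whole female flies were made by a company with RNase I digestion. The authors trimmed reads with Cutadapt and estimated counts with Salmon against a decoy-aware BDGP6 transcriptome index that included noncoding RNAs, with a k-mer of 20 for Ribo-Seq. The deposited values are estimated counts per transcript, rounded and not normalised. Salmon divides fragments that fit several transcripts by a model, so values of near-identical copies are inferences. Of 28367 features, 28341 matched Ensembl release 115 (BDGP6), which gave symbols, coordinates and lengths. Lengths were means over transcripts weighted by RNA counts.

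Counts were summed per gene, and CPM used the nuclear protein-coding total of each library (1 footprint was worth 0.313 to 0.887 CPM). A single DESeq2 model (version 1.42.0, R 4.3.3) of genotype, assay, their interaction and the replicate number was fitted to all genes in 10 libraries, without wild-type replicate 3, as in the study's methods. Two-sided Wald p-values were adjusted over all genes (Benjamini-Hochberg) and called under 0.1. edgeR 4.0.16 was an alternative, with other filters, scalings, pseudocounts and minimum RNA levels, and each library left out. Scripts were tested on simulated data. Tables and figures used Python 3.11.15, pandas 2.3.3 and matplotlib 3.10.9.

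The members, 29 gene lists and tests were chosen with earlier results of these data known, and 8 further lists and the families of copies after the members were seen. Genes were named by rank: the 15 highest wild-type ratios, up to 4 of the highest members in each list with at least 3, the genes next to the threshold, the called members and the 4 highest and 4 lowest Polr3DEY/+ ratios. Others were named after their values were seen. Precision is limited by 2 wild-type RNA libraries.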

Additional observations from a re-analysis of the deposited data

How the results depend on the processing

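Of the 150 members, a minimum RNA of 50 CPM kept 91, no minimum 27, scaling by length 91, summed families 138 and leaving out a wild-type library 123 to 143. The median Polr3DEY/+ ratio was 4.3 with values scaled by length and 4.6 when divided by the median of like length, against 3.56, and 3.26 to 3.84 without 1 Polr3DEY/+ replicate, when 113 to 125 members were among the 150 highest. Over all genes, the RNA contrast called 135, but 15 in edgeR, 23 with a mean of at least 10 counts, 66 with all 11 libraries and 41 with no replicate block; the member called was lost in edgeR and under the minimum (0 each). The footprint contrast called 52, and 10 under that minimum; with families summed it called 0 members, because LysB was then part of the Lys sum. Translation efficiency called 41, but 4 in edgeR, 1 under the minimum, 10 with all 11 libraries and 7 with no replicate block. Without 1 library, the RNA contrast called 4 to 173 genes and 0 to 6 members, the footprint contrast 9 to 69 and 0 to 4, and translation efficiency 2 to 78 and 0 to 6. Leaving out a wild-type library left a single wild-type library of that assay in the fit, so calls under those settings rest on 1 control library. Without the wild-type RNA library 2 the members called for translation efficiency were all short mRNAs, and without library 1 BaraA1 alone was called. Where a call was lost, the cause was not tested, apart from LysB. The replicate number was a term of the model because the study's methods have it, although same-numbered Ribo-Seq libraries of the genotypes did not deviate together (correlations of 0.02, -0.12 and 0.05); in RNA-Seq, 2 wild-type libraries give a single value, -0.65. With no replicate block, both called members stayed called. The filter on shared 20-mers was not run, as no sequences were used here. The depth, 1 count worth up to 0.887 CPM in footprints, limits short and rare mRNAs most.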
